A study of Mus musculus with 8 samples.

Results

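Glycolysis, the pentose phosphate pathway and the hypoxia response are described here by 35 named genes measured in whole mouse ankle joint. The genes were chosen by name: glucose and lactate transporters, the enzymes that carry glucose to lactate, the enzymes of the pentose phosphate branch, and genes that sense or respond to low oxygen. A gene entered through probe sets (groups of array oligonucleotides read as 1 value) annotated to that gene alone. Such probe sets were found for 31 of the 35 genes, out of 18193 genes on the array. They numbered 71 of 45101, of which 66 passed a filter on dim signal, and each of the 31 genes kept at least 1. Gpi1, Gapdh, Eno1 and G6pdx had no probe set of their own and are not analysed here.

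The RNA came from 5-month-old mice in 3 groups. The first group, called null-labelled below, has 3 arrays from mice that carry a human TNF transgene (hTNF) and whose label gives sphingosine kinase 1 (Sphk1) as functionally null. A further 3 arrays came from mice with the hTNF transgene and normal Sphk1, and 2 from wild-type mice with neither alteration. Human TNF overexpression in mice is a model of inflammatory arthritis, and the arrays allow transgenic joints to be compared with wild type, and null-labelled joints with the other transgenic joints. The sources used here do not name the promoter of the transgene, the strain or the Sphk1 allele. Each label speaks of 1 mouse per array but names no litter or preparation, so the p-values reflect array-to-array spread alone, part of which may be technical.

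Glycolysis splits glucose into pyruvate, and lactate dehydrogenase turns pyruvate into lactate when it is not passed on to mitochondria. Many of its steps have isoenzymes encoded by separate genes, some used mostly in muscle and others in brain, liver or blood cells. The pentose phosphate pathway branches off glucose 6-phosphate and supplies NADPH and ribose. HIF-1alpha, encoded by Hif1a, is a transcription factor that prolyl hydroxylases mark for destruction when oxygen is present, and it switches on many glycolytic genes when oxygen is low. Immune cells and synovial fibroblasts activated by inflammatory signals are known to take up more glucose.

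The brighter probe set of Sphk1 was highest in the group labelled null: it read 10.22, 9.94 and 10.00 log2 on the null-labelled arrays, 8.63, 8.65 and 8.28 with hTNF alone, and 7.25 and 7.16 in wild type. A second, dim probe set that was not tested read 6.68, 6.33 and 6.41 on null-labelled arrays, 6.52, 6.74 and 6.50 on hTNF arrays, and 6.12 and 6.39 in wild type. The brighter reading did not bear out the label, and the sources used here do not say which part of the transcript the allele alters. Null-labelled replicate 1, hTNF replicate 1 and wild-type replicate 2 carried signal of both Xist and the Y-linked Eif2s3y. In that order Xist read 11.19, 13.05 and 13.09 log2, and Eif2s3y 9.14, 6.60 and 6.91. Whether each of these arrays holds RNA of 1 mouse, as the labels say, was not tested. Of the rest, hTNF replicate 2 and wild-type replicate 1 had low Xist (7.29 and 7.45 log2) with Eif2s3y at 8.75 and 8.86, and null-labelled replicates 2 and 3 and hTNF replicate 3 had high Xist (12.89 to 13.16) with Eif2s3y at 3.46 to 3.81, so sex-linked signal was uneven across the groups. The 3′ minus 5′ difference of the actin control, a sign of RNA quality, was 0.53 to 0.74 on null-labelled arrays, 0.47 to 0.60 on hTNF arrays, and 0.37 and 0.45 in wild type; the same difference of the Gapdh control was 0.26 to 0.35, 0.19 to 0.23, and 0.12 and 0.25. The actin control was thus higher on every transgenic array than in wild type, and its part in the differences below was not tested. The whole joint holds many tissues, and their markers differed between groups. The mean level of 16 skeletal muscle markers lay at 12.58 to 13.09 log2 on null-labelled arrays, 12.90 to 13.24 on hTNF arrays and 14.16 to 14.19 on wild-type arrays. For 12 macrophage and monocyte markers the ranges were 11.39 to 11.62, 11.15 to 11.41 and 9.23 to 9.27 in the same groups, and for 8 adipocyte markers 8.53 to 8.90, 8.98 to 9.11 and 11.17 to 11.30. In hTNF against wild type 5 of 8 synovial fibroblast markers (median difference 0.63) and 7 of 9 proliferation markers (median 1.34) were also called higher. Called lower were 7 of 8 endothelial markers (median -0.56) and 5 of 9 cartilage markers (median -0.69), while 1 cartilage marker was called higher. Of all genes 16.5% were called higher and 19.6% lower. The part of these cells in the results was not tested. The wild-type pair was uneven in other cells: 10 neutrophil markers averaged 7.99 on wild-type replicate 1 and 11.00 on replicate 2, and 9 proliferation markers 6.69 and 8.24. In whole tissue of this kind, fewer cells of a type and less RNA per cell cannot be told apart.

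In hTNF joints the pathway did not move as 1 block: 13 of the 31 genes rose against wild type, 7 fell and 11 were not called. A gene was called at a Benjamini-Hochberg adjusted p under 0.05 over all 24115 tested probe sets in limma, and its value is that of its brightest tested probe set. The 20 called make 64.5% of the members. Of all 12362 genes tested in the same way, 36.1% were called, 16.5% as higher and 19.6% as lower. The share of members called lower was thus near that of all genes, while the share called higher was above it. The 31 genes had a median difference of 0.19 log2, against -0.02 over all genes. The widest rises belonged to Aldoc, Pgam1, Pfkl and Pfkp, and the widest falls to Ldhb, Pfkm and Hk2, so both directions were found inside the same enzyme families. The hTNF and wild-type arrays did not overlap for 14 members on the higher side and 8 on the lower, against 28.7% and 35.1% of all genes. On the lower side this was a smaller share than among all genes. Without the 3 arrays of mixed sex-linked signal, about as many members were called as with all arrays. Without wild-type replicate 2 fewer were called, and fewer of all tested probe sets as well. Each of these fits leaves wild type with 1 array, here and wherever a wild-type array is left out below, and assumes that this array varies like the other groups.

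**Figure D1:**
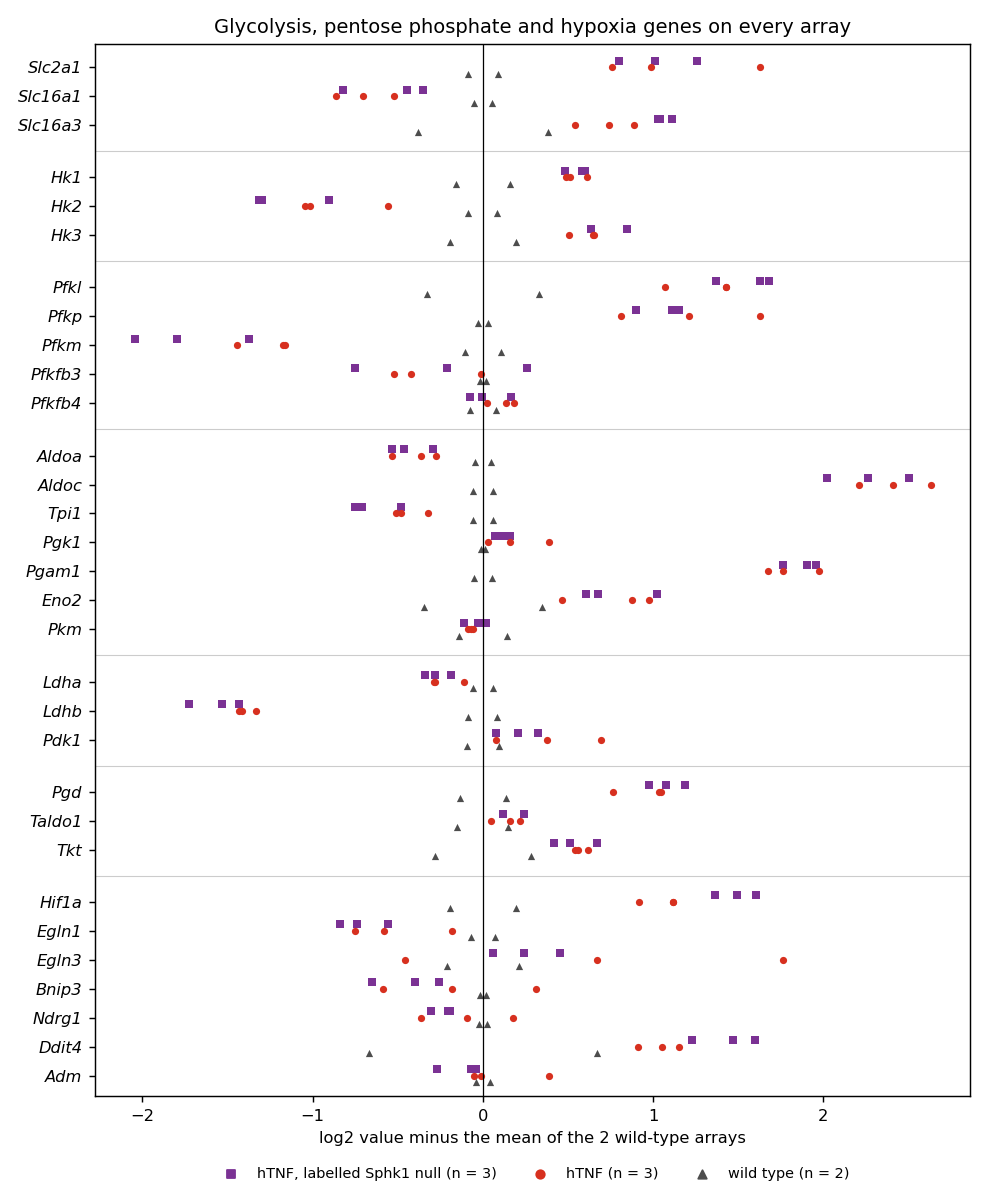
Each point is 1 array, placed by its log2 value minus the mean of the 2 wild-type arrays for that gene; squares are null-labelled hTNF arrays, circles hTNF arrays and triangles wild-type arrays, with lines between the roles. Aldoc and Pgam1 stand far to the right of wild type in both transgenic groups, Ldhb and Pfkm far to the left, and Pkm, Pfkfb4 and Taldo1 near 0.

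Among the transporters, Slc2a1, which encodes the glucose carrier GLUT1, read 11.24, 10.37 and 10.60 log2 on hTNF arrays and 9.70 and 9.52 in wild type. The groups did not overlap, and the gene rose by 1.13 ± 0.23 log2 (SE, 3 against 2 arrays; 2.18-fold; limma adjusted p = 0.00540). Its other 2 tested probe sets gave differences of 1.02 and 1.00. The lactate carriers went opposite ways. Slc16a3, which encodes MCT4, the carrier that exports lactate, read 9.47, 9.67 and 9.82 on hTNF arrays and 9.31 and 8.55 in wild type, and rose by 0.72 ± 0.20 (limma adjusted p = 0.0214). Slc16a1, which encodes the monocarboxylate carrier MCT1, read 10.41, 10.23 and 10.07 on hTNF arrays and 10.88 and 10.99 in wild type, and fell by 0.70 ± 0.16 (limma adjusted p = 0.00761). Wild-type replicate 2 weighs on Slc16a3, which differed by 0.34 without it. Slc16a1 moved little, to -0.64. The calls of Slc16a3 and Slc16a1 were lost in that fit, which leaves wild type with 1 array. Without wild-type replicate 1 the Slc16a3 difference was 1.10, and without hTNF replicate 2 or 3 it was 0.71 or 0.64 and no longer called.

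Hexokinases, which trap glucose as glucose 6-phosphate, were divided in the same way. Hk1, the broadly expressed form, read 10.67, 10.79 and 10.69 log2 on hTNF arrays and 10.34 and 10.02 in wild type, a rise of 0.54 ± 0.11 (limma adjusted p = 0.00617). Hk3, a form found in myeloid cells, read 8.90, 9.04 and 9.05 on hTNF arrays and 8.20 and 8.59 in wild type, a rise of 0.60 ± 0.14 (limma adjusted p = 0.00978). Both genes have a second tested probe set, and these gave rises of 0.84 and 0.54. Macrophage and monocyte markers moved with Hk3, 10 of 12 being called as higher with a median difference of 1.89, and their part in its value was not tested. Hk2, the form of insulin-responsive muscle and fat, went down: it read 11.24, 10.75 and 10.78 on hTNF arrays and 11.88 and 11.71 in wild type, a fall of 0.87 ± 0.18 (1.83-fold lower; limma adjusted p = 0.00460). The Hk1 call was lost without wild-type replicate 2 (0.38; limma adjusted p = 0.0570) and the Hk3 call without wild-type replicate 1 (0.41; limma adjusted p = 0.107).

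Phosphofructokinase commits sugar to glycolysis, and its 3 subunit genes also parted. Pfkl, the liver-type subunit, read 10.34, 10.70 and 10.70 log2 on hTNF arrays and 9.60 and 8.94 in wild type, a rise of 1.31 ± 0.20 (2.48-fold; limma adjusted p = 0.00111). Pfkp, the platelet-type subunit, read 11.57, 10.75 and 11.15 on hTNF arrays and 9.91 and 9.97 in wild type, a rise of 1.22 ± 0.20 (2.32-fold; limma adjusted p = 0.00165). Each of these genes had a dimmer probe set that was not called, at 0.30 for Pfkl and 0.43 for Pfkp, and another that was called as higher. Pfkm, the muscle-type subunit, read 12.72, 12.71 and 12.44 on hTNF arrays and 13.99 and 13.78 in wild type, a fall of 1.26 ± 0.18 (2.40-fold lower; limma adjusted p = 0.000705). All 16 skeletal muscle markers were lower in hTNF joints as well, 15 of them called, with a median difference of -0.98; the part of muscle in the Pfkm difference was not tested. Pfkfb3 and Pfkfb4, which make the allosteric activator of phosphofructokinase, were not called: Pfkfb3 read 10.24, 9.73 and 9.83 on hTNF arrays and 10.23 and 10.27 in wild type, and Pfkfb4 differed by 0.12 ± 0.11.

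**Figure D2:**
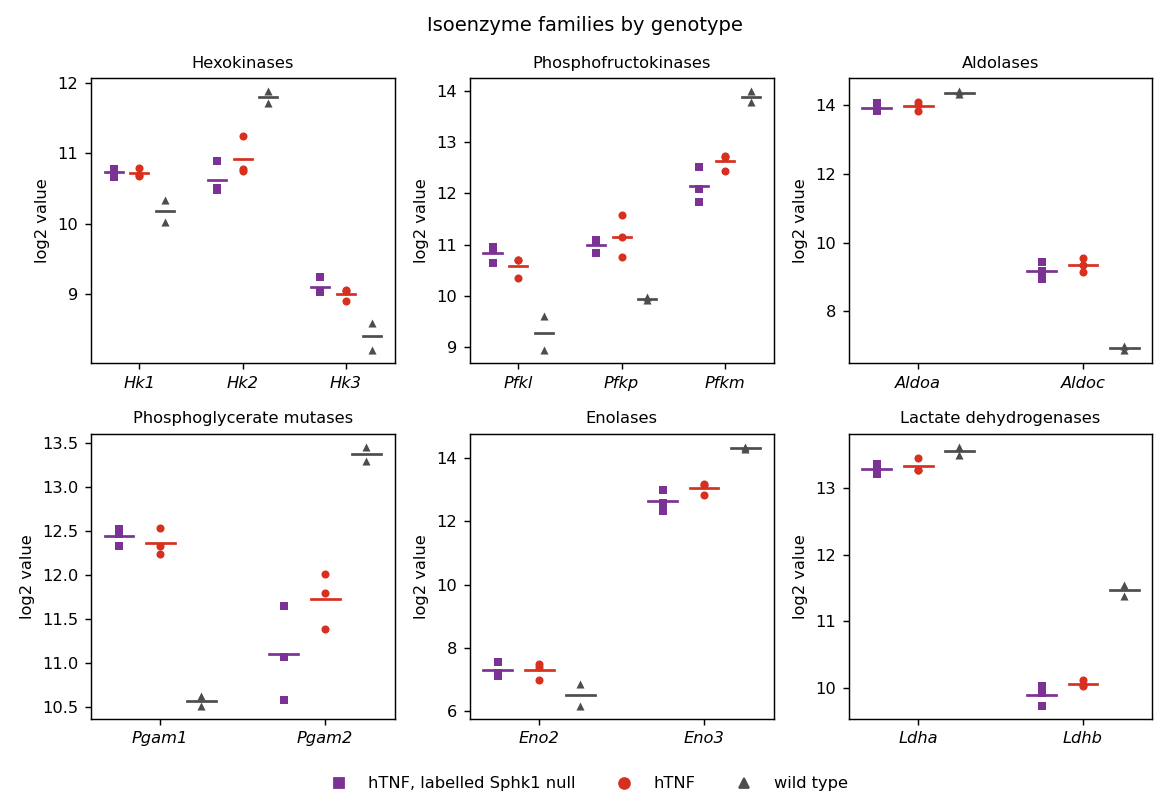
Log2 values per array for 6 isoenzyme families, with squares for null-labelled hTNF arrays, circles for hTNF arrays, triangles for wild-type arrays and a line at each group mean. In the hexokinase, phosphofructokinase, aldolase, phosphoglycerate mutase and enolase panels at least 1 gene is higher and 1 lower in hTNF joints than in wild type; heights of different genes are not comparable, since each gene has its own probe set. Pgam2 and Eno3 are added from the wider glycolysis list. Eno2 passed the filter on dim signal only through transgenic arrays, since neither wild-type value exceeded its cut of 6.87 log2. With values under the cut set to it, the hTNF difference of Eno2 from wild type was 0.43.

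Further down the pathway, aldolase cleaves the 6-carbon sugar. Aldoc, the brain-type aldolase, read 9.33, 9.13 and 9.55 log2 on hTNF arrays and 6.86 and 6.98 in wild type. Every hTNF array was more than 2 log2 units above both wild-type arrays, and the rise of 2.42 ± 0.17 (5.34-fold; limma adjusted p = 2.36e-05) had the largest estimate among the 31 genes. Its wild-type values lie at the cut of 6.87 log2 used to leave out dim signal, with 1 of them under it, and Aldoc passed that filter through the transgenic arrays. With the value under the cut set to it, the difference was 2.41. Aldoa, the aldolase of muscle and many other cells, read 14.09, 14.00 and 13.83 on hTNF arrays and 14.32 and 14.41 in wild type, a fall of 0.39 ± 0.09 (limma adjusted p = 0.0108). Its 4 other tested probe sets gave called falls, of 0.34 to 0.71. Tpi1, triosephosphate isomerase, read 13.00, 12.84 and 12.81 on hTNF arrays and 13.38 and 13.26 in wild type, a fall of 0.44 ± 0.10 (limma adjusted p = 0.00883). Another tested probe set of Tpi1 gave -0.53 and was not called (limma adjusted p = 0.0697). The Aldoa and Tpi1 calls were each lost in a fit that leaves wild type with 1 array, though the differences moved little. Without wild-type replicate 2 Aldoa differed by -0.35, and without wild-type replicate 1 Tpi1 differed by -0.38.

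Pgam1, the broadly expressed phosphoglycerate mutase, read 12.54, 12.24 and 12.33 log2 on hTNF arrays and 10.51 and 10.62 in wild type. The groups were far apart, with a rise of 1.81 ± 0.11 (3.49-fold; limma adjusted p = 1.28e-05). Eno2, the neuron-type enolase, read 6.99, 7.50 and 7.40 on hTNF arrays and 6.87 and 6.18 in wild type, a rise of 0.77 ± 0.24 (limma adjusted p = 0.0336). Neither wild-type value exceeded the dim cut, so Eno2 passed the filter only through the transgenic arrays, and with values under the cut set to it the difference was 0.43. With no filter its limma adjusted p was 0.0481. The Eno2 call was the least stable of the rises in this step: it was lost without wild-type replicate 2 (0.43; limma adjusted p = 0.268), hTNF replicate 2 (0.67; limma adjusted p = 0.0990) or hTNF replicate 3 (0.72; limma adjusted p = 0.0967). Pgk1, phosphoglycerate kinase, read 13.65, 13.29 and 13.42 on hTNF arrays and 13.25 and 13.27 in wild type, and its difference of 0.19 ± 0.10 was not called (limma adjusted p = 0.167). Pkm, the pyruvate kinase of most tissues other than liver and red cells, differed by -0.07 ± 0.09, with a 95% interval of -0.27 to 0.12.

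Pyruvate can become lactate or enter mitochondria. Ldha, the lactate dehydrogenase subunit of muscle and a known HIF target, read 13.44, 13.26 and 13.27 log2 on hTNF arrays and 13.61 and 13.49 in wild type; the difference of -0.23 ± 0.08 just missed the threshold (limma adjusted p = 0.0609). It passed without hTNF replicate 1, at -0.28 (limma adjusted p = 0.0245). Ldhb, the heart-type subunit, read 10.03, 10.13 and 10.05 on hTNF arrays and 11.38 and 11.55 in wild type, a fall of 1.40 ± 0.11 (2.63-fold lower; limma adjusted p = 5.21e-05). The 3 other tested probe sets of Ldhb gave falls of 1.52 to 1.66, so Ldhb was lower by each of them. Pdk1, a kinase that blocks pyruvate dehydrogenase, read 10.44, 9.82 and 10.12 on hTNF arrays and 9.84 and 9.65 in wild type, a difference of 0.38 ± 0.17 (limma adjusted p = 0.125). Its probe sets disagreed: 2 others gave 0.34 and 0.07 and the remaining one -0.81 (limma adjusted p = 0.0514), so no direction is given for Pdk1. Leaving out hTNF replicate 2 made the brightest one a called rise of 0.54 (limma adjusted p = 0.0347).

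In the pentose phosphate pathway 2 of the 3 measured genes rose and none fell, where 16.5% of all genes were called higher and 19.6% lower. Pgd, 6-phosphogluconate dehydrogenase, which yields NADPH, read 11.84, 12.11 and 12.12 log2 on hTNF arrays and 10.94 and 11.21 in wild type, a rise of 0.95 ± 0.12 (1.93-fold; limma adjusted p = 0.000470). All 4 tested probe sets of Pgd were called, with rises of 0.90 to 1.06. Tkt, transketolase of the non-oxidative branch, read 12.49, 12.47 and 12.55 on hTNF arrays and 11.65 and 12.21 in wild type, a rise of 0.57 ± 0.15 (limma adjusted p = 0.0153). The hTNF arrays of Tkt lay close together while the wild-type pair was far apart, and without wild-type replicate 1 the difference was 0.29 (limma adjusted p = 0.115). Taldo1, transaldolase, read 10.98, 11.15 and 11.09 on hTNF arrays and 10.78 and 11.08 in wild type, which overlap, and its difference of 0.14 ± 0.11 was not called.

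Hypoxia sensing and response genes gave 2 rises, 1 fall and 4 genes not called, so that 42.9% were called, near the 36.1% of all genes. Hif1a read 12.07, 12.27 and 12.27 log2 on hTNF arrays and 10.96 and 11.35 in wild type, a rise of 1.05 ± 0.13 (2.07-fold; limma adjusted p = 0.000369), and its 2 other tested probe sets rose by 1.14 and 1.41. Arrays measure its transcript and not the protein, on which oxygen acts. Ddit4, a stress-induced inhibitor of mTOR signalling, read 10.21, 9.97 and 10.11 on hTNF arrays and 9.73 and 8.39 in wild type, a rise of 1.04 ± 0.31 (limma adjusted p = 0.0305). The wild-type pair of Ddit4 was further apart than any other of the 31 genes, and the difference was 0.37 without wild-type replicate 2 (limma adjusted p = 0.169) and 1.71 without wild-type replicate 1. Without hTNF replicate 1 or 3 it was 0.98 or 1.03 (limma adjusted p = 0.0694 and 0.0733).

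Egln1, the prolyl hydroxylase that is the main oxygen sensor for HIF, read 11.23, 10.66 and 10.83 log2 on hTNF arrays and 11.48 and 11.34 in wild type, a fall of 0.50 ± 0.16 (limma adjusted p = 0.0401). A second probe set gave -0.11, and the call was lost on leaving out wild-type replicate 1 (-0.43) or 2 (-0.57), hTNF replicate 2 (-0.38) or 3 (-0.46), or null-labelled replicate 2 or 3 (-0.50 each), with limma adjusted p of 0.0526 to 0.211. Egln3, a hydroxylase that HIF induces, had the widest spread within a group: it read 12.05, 9.83 and 10.96 on hTNF arrays and 10.50 and 10.08 in wild type. Its difference of 0.66 ± 0.49 was not called, and without hTNF replicate 2 it was 1.22 (limma adjusted p = 0.0210). Bnip3, which promotes the removal of mitochondria, differed by -0.15 ± 0.22. Ndrg1, a stress-response gene induced by low oxygen, differed by -0.10 ± 0.14, and Adm, which encodes the vasodilator adrenomedullin, by 0.11 ± 0.15. The hTNF arrays of these 3 genes lay on both sides of the wild-type values.

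Within the hTNF group, replicate 1 was often the highest array for these hypoxia genes, though not for them alone. It was the highest of the 3 hTNF arrays for 6 of the 7 hypoxia members, Hif1a excepted. The same held for 18 of 25 other hypoxia factors and targets (72.0%), against 28.9% of all genes tested. Over all 31 members it was the highest for 18 (58.1%), and for 3 of 17 other glycolysis and glucose uptake genes (17.6%). Bnip3 read 12.98 on this array and 12.08 and 12.49 on the other two, and Adm 8.64 against 8.20 and 8.24. The same array carried the highest level of 9 skin markers, with a mean of 11.49 log2 against 6.95 and 8.84 on hTNF replicates 2 and 3, and it is among the arrays of mixed sex-linked signal; whether either accounts for the hypoxia values was not tested. Without it, 1 of the 7 members rose (Hif1a) and 1 fell (Egln1).

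**Figure D3:**
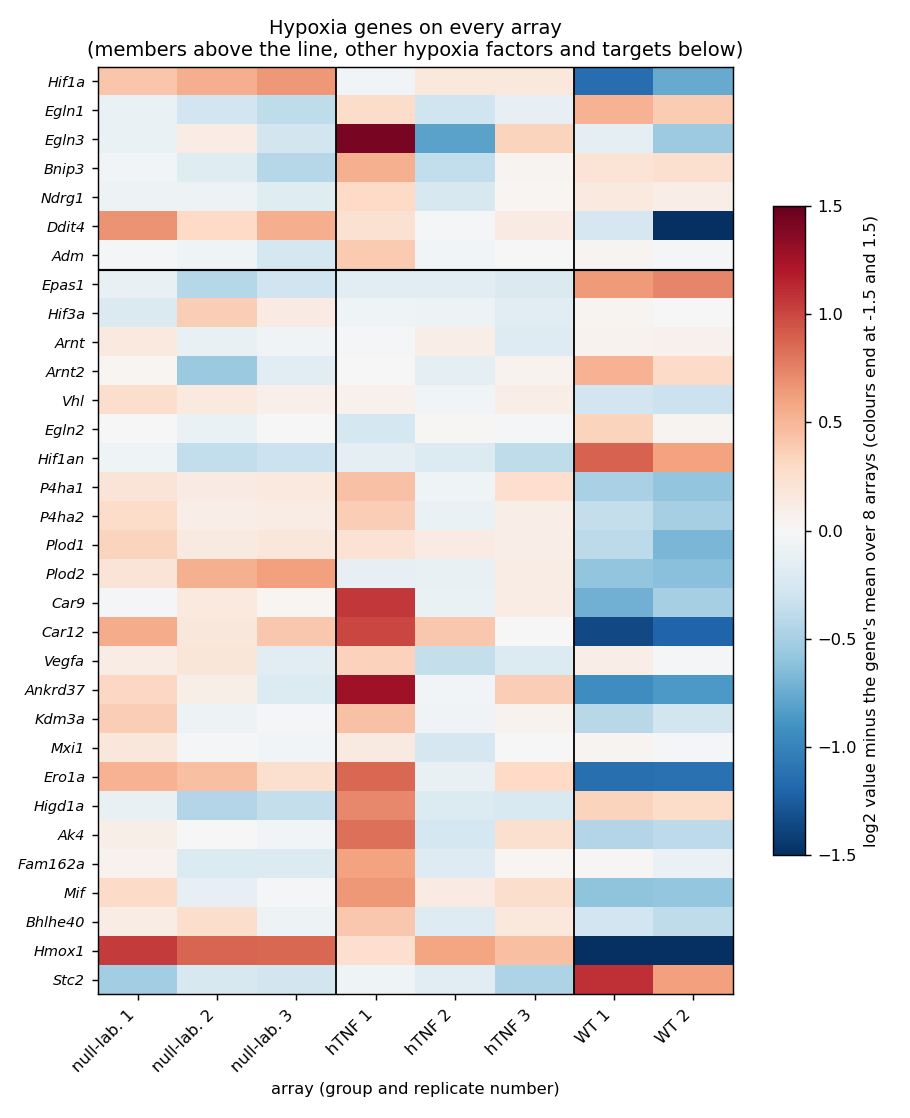
Each cell is the log2 value of a gene (row) on an array (column) minus that gene's mean over the 8 arrays, with the 7 members above the line and 25 other hypoxia genes below; colours end at -1.5 and 1.5. The hTNF replicate 1 column is the most red of its group for Egln3, Bnip3, Ndrg1, Adm, Car9 and Ankrd37, while Hif1a is highest in the null-labelled columns.

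Other genes of these pathways were counted as lists, and the named ones are those with the largest called changes of each. Of 17 other genes of glycolysis and glucose uptake with a tested probe set, 1 rose and 5 fell in hTNF joints against wild type, which is 35.3% called and about the share of all genes (36.1%). Slc2a6, a glucose transporter family member found in myeloid cells, rose by 2.42 ± 0.20 log2 (limma adjusted p = 4.97e-05), reading 8.61, 9.14 and 8.99 on hTNF arrays and 6.48 and 6.50 in wild type. Both wild-type values of Slc2a6 lie under the dim cut, and with these set to the cut its difference was 2.04. The falls included 3 genes that muscle uses: Pgam2, the muscle phosphoglycerate mutase (-1.65 ± 0.28), Slc2a4, the insulin-regulated GLUT4 of muscle and fat (-1.35 ± 0.21), and Eno3, the muscle enolase (-1.26 ± 0.18). Pgam1 and Pgam2 differed in opposite directions, and Eno3 fell where Eno2, dim in wild type, rose. The muscle marker levels given above moved with these falls, and the part of muscle in them was not tested.

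Genes of pyruvate entry to mitochondria were nearly all lower. Of 11 tested, 9 fell and 2 rose in hTNF joints (11 of 11 called, against 36.1% of all genes), with a median difference of -0.78 log2 (all genes: -0.02). The falls were led by genes of opposite action: the kinases Pdk4 (-1.71 ± 0.50) and Pdk2 (-1.61 ± 0.29), which inhibit pyruvate dehydrogenase, the phosphatase Pdp1 (-0.97 ± 0.22), which activates it, and Pdhx, a structural part of the dehydrogenase complex (-0.88 ± 0.16). Pdk4 lost its call when either wild-type array or hTNF replicate 3 was left out (-1.54, -1.89 and -1.32), and Pdp1 did so without wild-type replicate 1 (-0.69). Without wild-type replicate 1 fewer of the 11 were called. That fit leaves wild type with 1 array, and calls dropped over all tested probe sets as well.

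Gluconeogenesis and glycogen genes gave 9 falls and 2 rises among 16 (68.8% called, against 36.1% of all genes). Pck1, phosphoenolpyruvate carboxykinase of liver, kidney and fat, fell by 2.14 ± 0.42 log2, reading 5.31, 6.27 and 5.24 on hTNF arrays and 8.42 and 7.08 in wild type. No hTNF array exceeded the dim cut for Pck1, which passed the filter through wild type, and with values under the cut set to it the difference was -0.88. The muscle phosphorylase kinase subunits Phkg1 (-1.80 ± 0.39) and Phka1 (-1.67 ± 0.14) and the muscle fructose bisphosphatase Fbp2 (-1.39 ± 0.22, or -1.23 with values under the cut set to it) fell too, although Phkg1 lost its call without wild-type replicate 1 (-1.53; limma adjusted p = 0.0688). Both muscle and adipocyte markers were lower on the same arrays, with 15 of 16 and 8 of 8 called.

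Of 8 other genes of the pentose phosphate pathway and NADPH supply, 2 rose and 2 fell (4 of 8 called, against 36.1% of all genes). Me1, cytosolic malic enzyme, which makes NADPH in fat, fell by 1.10 ± 0.18 log2, and Prps1, which makes phosphoribosyl pyrophosphate, by 0.79 ± 0.10. Pgls, which acts between the oxidative dehydrogenases, rose by 0.41 ± 0.12, and Prps2 by 0.34 ± 0.12. Neither of these rises held when any one of several arrays was left out: Pgls gave 0.36 to 0.44 and Prps2 0.22 to 0.36 in the fits that lost them. No gene of this list rose without hTNF replicate 2 or 3, where fewer of all tested probe sets were called too. Hypoxia factors and HIF targets other than the members gave 11 rises and 3 falls among 25 (56.0% called). Of all genes 36.1% were called, 16.5% as higher and 19.6% as lower. Hmox1, heme oxygenase, which HIF and oxidative stress both induce, rose by 2.47 ± 0.15 log2, reading 10.23, 10.58 and 10.43 on hTNF arrays and 8.14 and 7.75 in wild type. Car12, a carbonic anhydrase, rose by 1.75 ± 0.26 (0.89 with its wild-type values, both under the dim cut, set to it), Ero1a, an oxidase of protein folding, by 1.48 ± 0.23, and Ankrd37 by 1.43 ± 0.32; Ankrd37 lost its call without wild-type replicate 1 (1.39; limma adjusted p = 0.0571). Fewer rises were called without either wild-type array, in fits that leave wild type with 1 array, and 10 of 25 without hTNF replicate 1. Calls over all tested probe sets dropped in these fits as well, from 7965 with all arrays to 7124 without hTNF replicate 1.

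**Figure D4:**
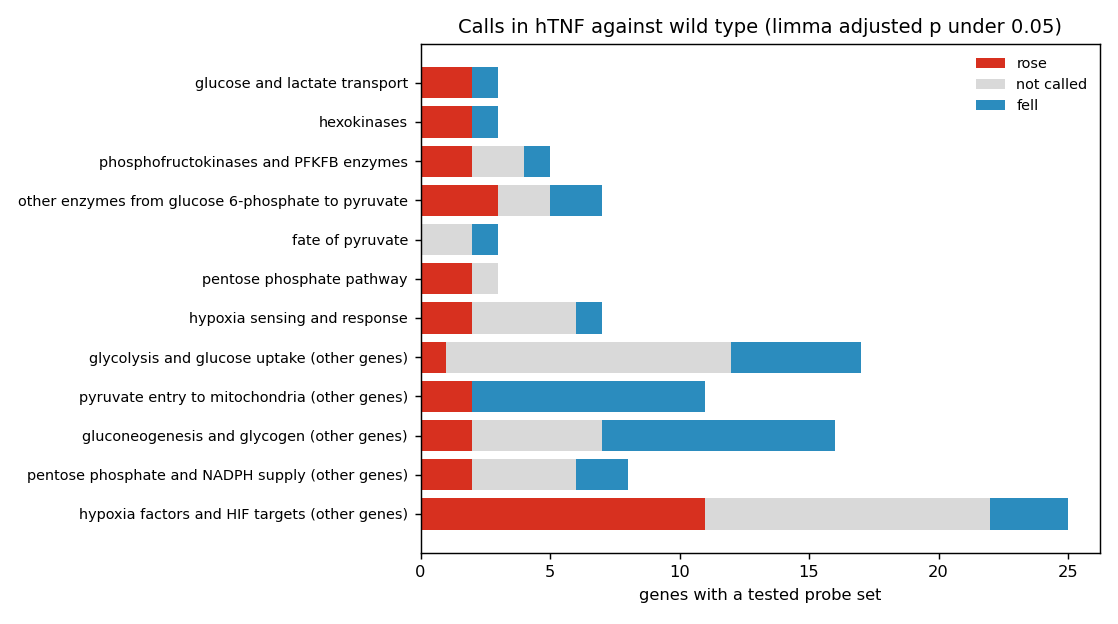
Bars count the genes with a tested probe set in each role or list, split into those that rose, were not called or fell in hTNF against wild type (limma adjusted p under 0.05). Transporters and hexokinases have 2 rises and 1 fall each, pyruvate entry has 9 falls among 11, and the hypoxia list has 11 rises among 25. For comparison, 16.5% of all genes tested were called higher and 19.6% lower.

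Between the transgenic groups none of the 31 genes was called in null-labelled against hTNF joints. Over all genes 2 of 12362 were called (0.0162%), so this contrast had few calls anywhere. At an unadjusted limma p under 0.05 there were 3 members, Hif1a, Pfkm and Tpi1, against 6.25% of all genes. Hif1a read 12.52, 12.65 and 12.76 log2 on null-labelled arrays and 12.07, 12.27 and 12.27 on hTNF arrays. The groups did not overlap, and the difference was 0.44 ± 0.12 (1.36-fold; limma unadjusted p = 0.00393, adjusted p = 0.554). Its 2 other tested probe sets differed by 0.40 and 0.79. With array weights estimated from the data, the difference was 0.50 and passed the threshold (limma adjusted p = 0.0459).

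Pfkm read 12.51, 11.84 and 12.09 log2 on null-labelled arrays and 12.72, 12.71 and 12.44 on hTNF arrays, a difference of -0.48 ± 0.16 (limma adjusted p = 0.607). Tpi1 differed by -0.21 ± 0.09 (limma adjusted p = 0.654). Pfkm and Tpi1 overlapped between the groups. Muscle markers were lower on null-labelled arrays too, 15 of 16 with a negative difference, a median of -0.37 and none called; the part of muscle in the Pfkm value was not tested. Slc16a3 and Ddit4 also had groups that did not overlap, as 5.1% of all genes did in the upward direction. Slc16a3 read 9.97, 10.04 and 9.96 on null-labelled arrays and 9.47, 9.67 and 9.82 on hTNF arrays, and Ddit4 10.66, 10.29 and 10.53 against 10.21, 9.97 and 10.11. Neither was called, at 0.34 ± 0.18 and 0.40 ± 0.28.

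These contrasts bound how far the members could differ between the transgenic groups. For Ldha the 95% interval of the difference ran from -0.21 to 0.12 log2, for Pgam1 from -0.15 to 0.29 and for Aldoc from -0.50 to 0.18. For Slc2a1 it ran from -0.58 to 0.37, and for Egln3 from -1.40 to 0.59, so a sizeable difference in Egln3 would not have been detectable with these arrays. The missing calls do not show that the groups are alike. In the wider lists no gene was called either; the smallest p of each list belonged to Adpgk, an ADP-dependent glucokinase (0.66 ± 0.15; limma adjusted p = 0.469), Plod2, a collagen lysyl hydroxylase (0.48 ± 0.12; limma adjusted p = 0.540), Pcx, pyruvate carboxylase (-0.27 ± 0.10; limma adjusted p = 0.612), Pdp1 (-0.38 ± 0.20; limma adjusted p = 0.678) and H6pd, the glucose 6-phosphate dehydrogenase of the endoplasmic reticulum (0.19 ± 0.12; limma adjusted p = 0.708). Adpgk read 8.70, 8.82 and 9.09 on null-labelled arrays and 7.93, 8.24 and 8.46 on hTNF arrays.

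**Figure D5:**
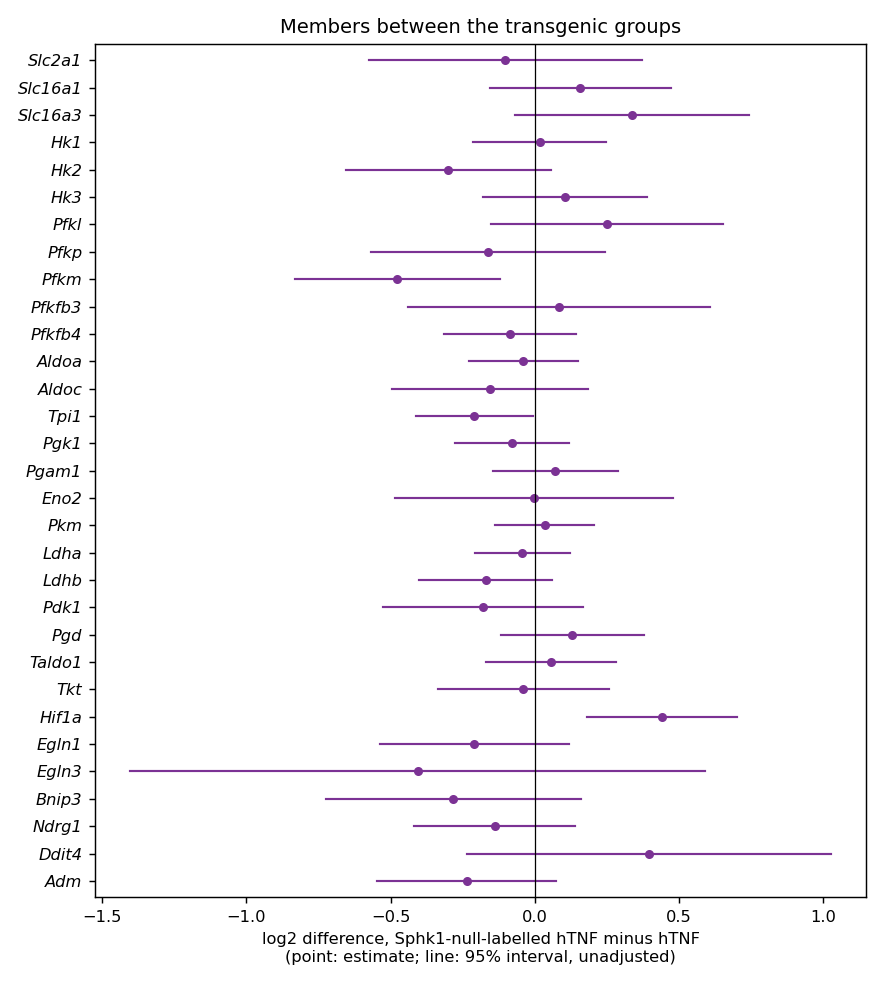
Points give the log2 difference of each member in null-labelled hTNF minus hTNF joints, and lines its unadjusted 95% interval (3 against 3 arrays). The intervals of Hif1a, Pfkm and Tpi1 leave out 0 and the rest include it; Egln3 has the widest, from -1.40 to 0.59.

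Set against wild type, the null-labelled joints had 13 members higher and 8 lower, where 19.1% and 23.8% of all genes were called in these directions (43.0% in all). This comparison shares its wild-type arrays with the one above, so the values are only set side by side. Aldoc read 9.42, 9.18 and 8.94 log2 on null-labelled arrays and differed from wild type by 2.26 ± 0.17, Pgam1 by 1.88 ± 0.11, Pfkl by 1.56 ± 0.20, Hif1a by 1.49 ± 0.13 and Ddit4 by 1.43 ± 0.31. On the lower side Pfkm differed by -1.74 ± 0.18, Ldhb by -1.56 ± 0.11 and Hk2 by -1.17 ± 0.18. Ldha, which missed the threshold in hTNF joints, fell here by 0.27 ± 0.08 (limma adjusted p = 0.0267), a call lost without wild-type replicate 1 (-0.21) or null-labelled replicate 2 or 3 (-0.26 or -0.23). Without wild-type replicate 1 fewer members were called lower, and fewer of all tested probe sets were called as well. Without wild-type replicate 2 Ddit4 differed by 0.76, Slc16a3 by 0.68 and Eno2 by 0.42, of which Eno2 was no longer called. Leaving out 1 array also ended the calls of Egln1 (-0.64 without wild-type replicate 1), Slc16a1 (-0.60 and -0.49 without wild-type replicates 1 and 2), Slc2a1 (0.93 without wild-type replicate 2) and Tkt (0.25 without wild-type replicate 1 and 0.47 without null-labelled replicate 1).

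Promoters of the members with the widest rises, of the hexokinase, phosphofructokinase and aldolase families, whose genes were called in opposite directions, and of the lactate dehydrogenases, among them the member with the most motif matches, are printed for reading beside their values. They come from RefSeq (GRCm38.p6) and cover 250 bases before and 50 after an annotated start, 5′ to 3′ on the gene's strand. Capitals mark the core of the hypoxia response element bound by HIF, searched as ACGTG and GCGTG on both strands, so that the reverse complements also appear in capitals; the palindrome CACGTG holds 2 overlapping matches.
Pgam1, chr19:41911621-41911920, plus strand: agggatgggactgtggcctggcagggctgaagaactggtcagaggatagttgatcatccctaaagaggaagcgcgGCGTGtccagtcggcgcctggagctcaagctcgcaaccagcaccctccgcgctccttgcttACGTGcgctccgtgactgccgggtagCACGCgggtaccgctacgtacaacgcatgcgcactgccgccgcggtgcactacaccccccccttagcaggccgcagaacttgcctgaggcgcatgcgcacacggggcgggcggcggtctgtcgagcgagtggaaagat
Aldoc, chr11:78322823-78323122, plus strand: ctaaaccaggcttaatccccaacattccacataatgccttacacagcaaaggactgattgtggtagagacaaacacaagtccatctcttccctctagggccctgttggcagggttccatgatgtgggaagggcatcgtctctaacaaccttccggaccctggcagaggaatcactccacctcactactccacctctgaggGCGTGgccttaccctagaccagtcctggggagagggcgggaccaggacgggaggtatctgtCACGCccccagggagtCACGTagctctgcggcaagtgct
Aldoa, chr7:126800398-126800697, minus strand: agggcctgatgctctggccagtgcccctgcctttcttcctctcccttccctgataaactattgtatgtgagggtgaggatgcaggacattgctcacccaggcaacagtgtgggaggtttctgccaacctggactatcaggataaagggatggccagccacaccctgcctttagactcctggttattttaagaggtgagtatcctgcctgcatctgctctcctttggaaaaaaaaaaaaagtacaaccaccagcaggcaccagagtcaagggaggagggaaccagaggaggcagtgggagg
Pfkl, chr10:78009758-78010057, minus strand: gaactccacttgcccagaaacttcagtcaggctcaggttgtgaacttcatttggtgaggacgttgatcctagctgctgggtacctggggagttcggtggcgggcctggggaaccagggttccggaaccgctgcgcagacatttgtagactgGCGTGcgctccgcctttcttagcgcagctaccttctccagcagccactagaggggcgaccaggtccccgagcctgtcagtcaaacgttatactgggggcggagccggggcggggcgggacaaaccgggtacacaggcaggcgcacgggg
Pfkp, chr13:6648722-6649021, minus strand: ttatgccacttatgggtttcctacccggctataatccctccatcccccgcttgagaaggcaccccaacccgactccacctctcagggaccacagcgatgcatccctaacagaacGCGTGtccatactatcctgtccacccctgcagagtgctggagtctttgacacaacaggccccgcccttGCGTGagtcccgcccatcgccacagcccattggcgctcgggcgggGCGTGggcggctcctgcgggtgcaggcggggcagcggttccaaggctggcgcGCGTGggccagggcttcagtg
Pfkm, chr15:98092339-98092638, plus strand: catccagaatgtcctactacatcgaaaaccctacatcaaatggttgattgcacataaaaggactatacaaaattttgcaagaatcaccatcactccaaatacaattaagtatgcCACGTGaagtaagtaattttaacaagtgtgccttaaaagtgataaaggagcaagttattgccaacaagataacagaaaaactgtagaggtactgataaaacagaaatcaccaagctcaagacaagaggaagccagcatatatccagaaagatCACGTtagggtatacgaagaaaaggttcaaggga
Hk1, chr10:62379859-62380158, minus strand: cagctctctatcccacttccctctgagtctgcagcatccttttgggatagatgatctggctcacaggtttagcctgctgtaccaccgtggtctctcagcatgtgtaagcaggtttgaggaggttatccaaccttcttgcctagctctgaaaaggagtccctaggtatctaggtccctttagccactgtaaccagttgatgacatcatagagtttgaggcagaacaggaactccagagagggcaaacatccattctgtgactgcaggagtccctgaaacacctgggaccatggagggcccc
Hk3, chr13:55021336-55021635, minus strand: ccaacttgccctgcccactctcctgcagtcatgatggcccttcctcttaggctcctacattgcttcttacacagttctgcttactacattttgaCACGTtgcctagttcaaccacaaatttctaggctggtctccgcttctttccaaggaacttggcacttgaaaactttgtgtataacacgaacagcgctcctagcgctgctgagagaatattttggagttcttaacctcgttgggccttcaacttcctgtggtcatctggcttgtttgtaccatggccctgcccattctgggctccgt
Hk2, chr6:82774405-82774704, minus strand: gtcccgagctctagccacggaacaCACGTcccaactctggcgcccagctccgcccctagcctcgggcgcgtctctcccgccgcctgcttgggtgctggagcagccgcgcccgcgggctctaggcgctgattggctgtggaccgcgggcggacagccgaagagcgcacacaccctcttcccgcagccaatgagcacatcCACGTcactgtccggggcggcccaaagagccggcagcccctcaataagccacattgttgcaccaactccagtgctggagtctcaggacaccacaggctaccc
Ldhb, chr6:142507908-142508207, minus strand: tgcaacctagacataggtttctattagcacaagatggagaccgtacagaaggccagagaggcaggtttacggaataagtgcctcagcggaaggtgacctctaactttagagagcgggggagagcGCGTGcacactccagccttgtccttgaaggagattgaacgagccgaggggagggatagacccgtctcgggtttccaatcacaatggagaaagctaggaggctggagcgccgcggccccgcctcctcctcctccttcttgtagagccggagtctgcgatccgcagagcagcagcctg
Ldha, chr7:46845554-46845853, plus strand: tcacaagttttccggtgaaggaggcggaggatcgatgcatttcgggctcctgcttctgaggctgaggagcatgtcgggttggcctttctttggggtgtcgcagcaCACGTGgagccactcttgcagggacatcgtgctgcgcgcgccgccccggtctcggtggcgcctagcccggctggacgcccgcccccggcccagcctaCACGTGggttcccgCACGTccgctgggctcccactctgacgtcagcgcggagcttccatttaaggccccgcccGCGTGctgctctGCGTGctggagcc
Ldha, which was not called in hTNF against wild type, held 7 matches in the window shown, the most of any member window. Pfkp held 4, Aldoc, Pgam1 and Pfkm 3 each, Hk2 2, Hk3, Pfkl and Ldhb 1 each, and the windows shown of Hk1 and Aldoa 0. Pfkm has 4 annotated windows, Aldoa 3, and Aldoc, Ldha and Hk1 2 each, of which the first is shown. The other windows of Pfkm held 2, 1 and 0 matches, and those of Aldoa 1 each. The second windows of Hk1, Ldha and Aldoc held 5, 2 and 1.

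Of the 34 members with a RefSeq promoter, 31 (91.2%) held at least 1 core in some window, against 46.7% of the 27025 genes in the promoter table. Member windows were also richer in G and C, with a median of 60.8% against 52.7%, and these motifs hold a CG pair, so the shares are descriptions at unequal base composition. The share did not separate the members by direction in hTNF against wild type: 12 of 13 that rose, 6 of 7 that fell and 10 of 10 that were not called and had a promoter held a core. Tpi1, which fell, and Eno2, which rose, had none in their window. A match is no evidence of binding, and its absence says only that the letters are not in this window.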

How the data were processed

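Total RNA of whole ankle joint was amplified into biotin-labelled cRNA and hybridised to 8 single-colour Affymetrix arrays, per the labels' protocols. The values, as the authors deposited them in a single table, are log2 expression per probe set. Affymetrix Expression Console, RMA and MAS5 are named in the submitters' processing notes; the sources used here do not say which of them made the deposited values. Array medians lay between 6.84 and 6.89, so the values carry no information on total RNA, and the number of arrays limits the precision: log2 differences had a median standard error of 0.15 for hTNF against wild type and of 0.13 for null-labelled against hTNF.

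Gene names are those of the platform annotation, brought up to date by gene identifier with RefSeq (GRCm38.p6). Control probe sets were left out, and probe sets above the median of the table (6.87) on at least 2 of the 8 arrays were tested. All 8 arrays entered a single fit of the 3 group means in limma 3.58.1 (R 4.3.3), with an intensity trend and 5 residual degrees of freedom, with Benjamini-Hochberg adjustment over all 24115 probe sets. The fit was tested on simulated data. "Rose" and "fell" are used only for an adjusted p under 0.05. A gene is represented by its brightest tested probe set. All members are named, and of each wider list up to 4 genes per comparison, those with the largest called change or, where none was called, the smallest p. The members, lists and tests were chosen with earlier results of these data known. Alternatives were other normalizations and filters, an offset of 32 before log2, array weights, robust variances, other choices of probe set, a replicate block, only the 2 groups compared, and leaving out arrays; differences with values under the dim cut set to it, given for dim genes, were added after seeing the data.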

Additional observations from a re-analysis of the deposited data

How the results depend on the processing

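In hTNF against wild type 582 of 620 refits of a member kept its side of the threshold, 31 lost a call and 7 gained one. The differences called with all arrays kept their sign in 400 of 400 refits, while 9 refits of 7 members not called turned sign with no call. No member was called in null-labelled against hTNF with all arrays, and 1 of 620 refits gained a call. In that comparison 32 refits of 13 members turned sign, so no direction is held for those 13. The other members did not turn sign, but none of them was called with all arrays. In null-labelled against wild type 600 of 620 kept their side, called differences kept their sign in 420 of 420, and 9 refits of 5 members not called turned sign, 1 of them into a call. That one was Pdk1, at -1.15 with the probe set of largest interquartile range (limma adjusted p = 0.00923), against 0.20 and no call with the brightest. Leaving out 1 array at a time gave 4695 to 9313 called probe sets for hTNF against wild type (7965 with all arrays; 4695 without wild-type replicate 1), with 9 to 13 members higher and 4 to 8 lower. The same refits gave 0 to 3 called probe sets for null-labelled against hTNF, where all arrays gave 2, and 5 to 9 members lower for null-labelled against wild type, where all arrays gave 8. In null-labelled against hTNF, array weights gave 186 probe sets and 1 member higher (Hif1a), quantile normalization gave 6 and leaving out the 3 arrays of mixed sex-linked signal gave 0. The cause of these changes was not tested, and the fits with arrays left out also rest on fewer arrays. With the replicate block, 6515 probe sets were called for hTNF against wild type with 12 members higher and 7 lower, 2 for null-labelled against hTNF with 0 members, and 7770 for null-labelled against wild type with 12 higher and 8 lower. Under the block Eno2 lost its call in both comparisons with wild type and no other member's call changed. Same-numbered null-labelled and hTNF arrays correlated in their deviations from the group mean at 0.23, 0.05 and 0.25. Null-labelled replicate 2 correlated best with hTNF replicate 3 (0.37). Same-numbered null-labelled and wild-type arrays correlated at 0.27 and 0.18, and same-numbered hTNF and wild-type arrays at -0.05 and -0.17. Deviations cancel out within so small a group, so these values cannot decide whether same-numbered arrays were paired. Small differences between the transgenic groups were not detectable with 3 arrays each.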

Other observations

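Gapdh, which has no probe set of its own here, is also carried as an Affymetrix control. Its control probe set at the 3′ end read 14.00, 13.85 and 13.88 log2 on null-labelled arrays, 14.07, 13.98 and 13.92 on hTNF arrays, and 14.31 and 14.22 in wild type. These controls were not tested.

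Among the null-labelled arrays, replicate 1 was the highest of its group for 22 of the 31 members (71.0%), and for 66.8% of all genes tested. It was the highest for 10 of 11 genes of pyruvate entry to mitochondria (90.9%) and for 7 of 8 genes of pentose phosphate and NADPH supply (87.5%). In the hTNF group, replicate 1 was the highest for 18 of 31 members (58.1%), against 28.9% of all genes, while replicate 2 was the highest for 10 of 17 other glycolysis and glucose uptake genes (58.8%), against 37.5% of all genes. These shares are descriptions of single arrays and carry no test.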
